A study of Mus musculus with 15 samples.

Results

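The proximal tubule recovers most of the sodium, phosphate, glucose and bicarbonate that the glomerulus filters, and 10 genes that carry out or organise this work were followed here in whole kidneys of Ang II-infused mice. They were taken by name: the phosphate transporters Slc34a1, Slc34a3 and Slc20a2, the sugar and monocarboxylate transporters Slc5a2, Slc5a1 and Slc5a12, the acid-base transporters Slc9a3 and Slc4a4, and the scaffold proteins Pdzk1 and Slc9a3r1. All 10 are among the 13933 annotated genes listed for every mouse, and all 10 passed the filter on low values that left 12366 genes for testing. Their RNA was measured by sequencing in 15 kidneys, 5 per group, from male wild-type C57BL/6 mice bought at 8 weeks of age and given 1 week to adapt. The Control group carried saline pumps, the AngII group received angiotensin II (Ang II) at 500 ng/kg/min from a subcutaneous osmotic pump, and the AngII+QDG group received the same infusion and Qingda granule (QDG, a Chinese herbal formula) at 1.145 g/kg/day by gavage. Treatment ran for 28 days in each group, and the mice without QDG were gavaged with vehicle. The kidneys were not dissected or sorted, so each value is an average over all nephron segments and vessels, in which fewer proximal tubule cells and less RNA per cell cannot be told apart.

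Apical sodium-coupled carriers draw their solutes into the proximal tubule cell on the sodium gradient across the cell membrane, and basolateral carriers return the solutes to blood. Slc9a3 exchanges luminal sodium for protons, and Slc4a4 lets the recovered bicarbonate out across the basolateral membrane. Ang II is known to act on proximal tubule sodium and acid transport, and PDZ scaffolds such as Pdzk1 and Slc9a3r1 hold the carriers at the brush border. RNA levels say nothing of how much carrier protein sits in that membrane.

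The 10 genes covered a wide range of levels, and none of them passed the test between any pair of groups. Levels are FPKM (fragments scaled to transcript length and library size, so that genes can be compared per length) summed over each gene's annotated transcripts. Slc34a1 stood far above the others with a mean of 2255.9 FPKM over the 15 mice, at the 99.85th percentile of the tested genes, and its range of 1923 to 3065 FPKM overlapped that of no other member. Pdzk1 (249.2 FPKM), Slc4a4 (227 FPKM), Slc5a2 (209 FPKM) and Slc9a3r1 (191 FPKM) followed, with overlapping ranges over the mice. Slc9a3 (43.6 FPKM) and Slc5a12 (36.6 FPKM) overlapped in turn, and the low end of Slc5a12 reached into the ranges of Slc5a1 (23.0 FPKM) and Slc20a2 (16.7 FPKM). Slc34a3 was lowest at 3.56 FPKM, at the 31.3rd percentile, but no coding transcript of it was listed.

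**Figure D1:**
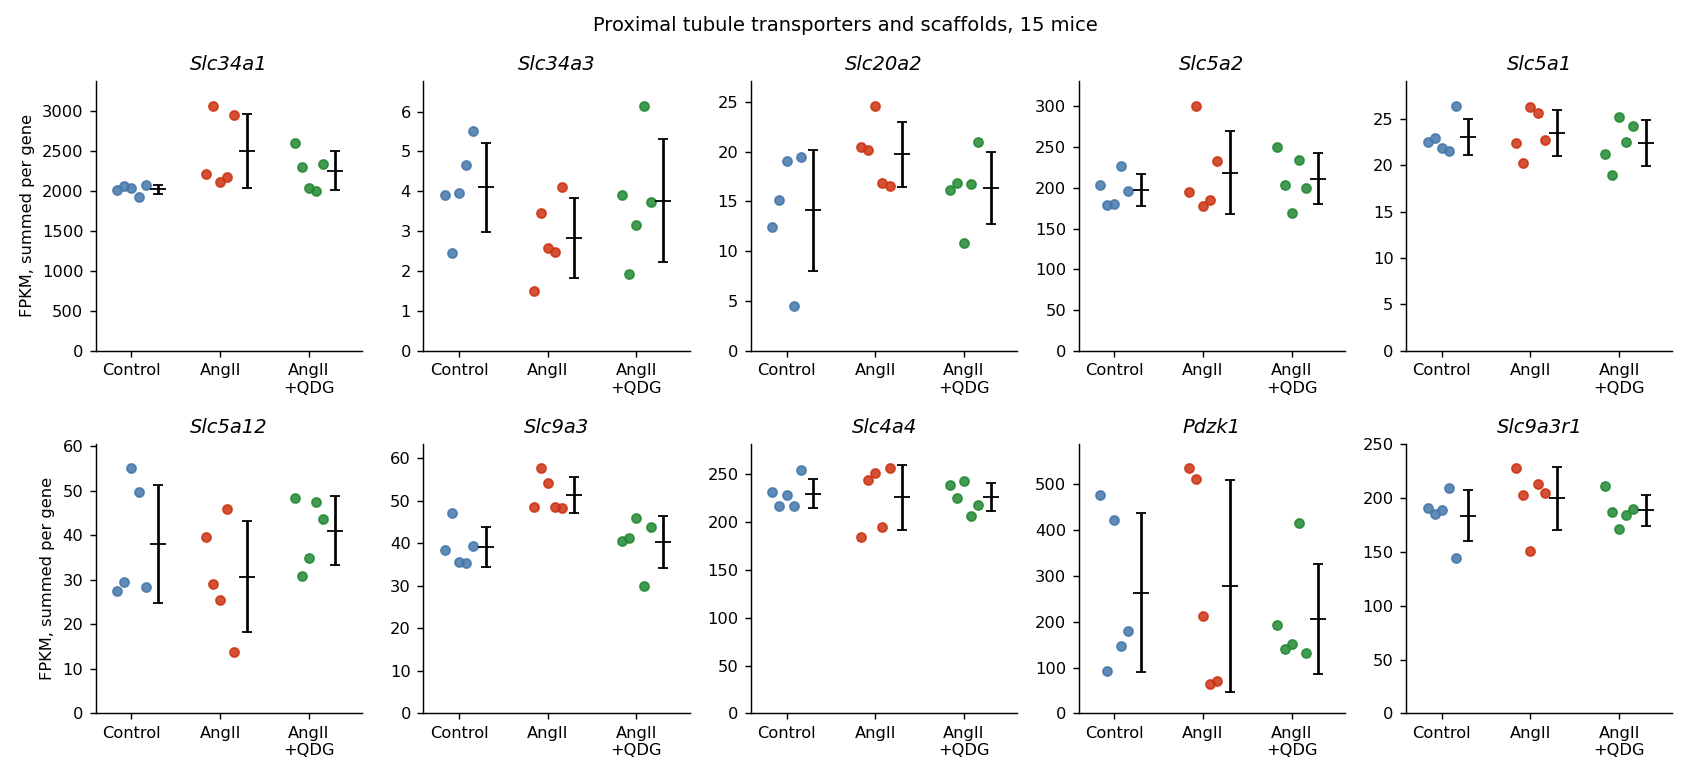
FPKM in each mouse for the 10 genes, 1 panel per gene with its own axis from 0, by group. Points are mice and bars are the group mean with its SD (n = 5). The 5 AngII mice lie above the 5 Control mice for Slc34a1 and Slc9a3, while Pdzk1 spreads from 63.1 to 534 FPKM within the AngII group alone.

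Differences were tested with limma on log2(FPKM + 1) over all 12366 genes in 1 model of the 15 mice, and a gene was called at a Benjamini-Hochberg adjusted p under 0.05. Between AngII and Control, 0 of the 10 genes were called, against 5.94% of all tested genes, and 2 (Slc34a1 and Slc9a3) had an unadjusted p under 0.05, against 22.7% of all genes. The same 2 genes were the members whose groups did not overlap, against 7.92% of all genes. Between AngII+QDG and AngII, 0 members were called (1.81% of all genes), 1 member, Slc9a3, had an unadjusted p under 0.05 (16.4% of all genes), and that gene was again the 1 whose groups did not overlap (5% of all genes). Between AngII+QDG and Control, 0 were called (0.129% of all genes), 0 had an unadjusted p under 0.05 (14.4%) and 0 were separated (3.64%). The study's threshold, a fold of at least 2 with a p under 0.05, was set for transcripts. With the unadjusted p and the gene sums, no member passed it in any of the comparisons, against 1.04%, 0.817% and 0.728% of all genes. Of the members' transcripts, 3 passed it between AngII and Control, as given below. The median log2 fold change of the 10 genes was 0.07, -0.05 and 0.04 in the 3 comparisons, beside 0.08, -0.02 and 0.06 over all tested genes. The first and second comparisons share the AngII mice and the first and last share the Control mice, so their values are not independent.

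**Figure D2:**
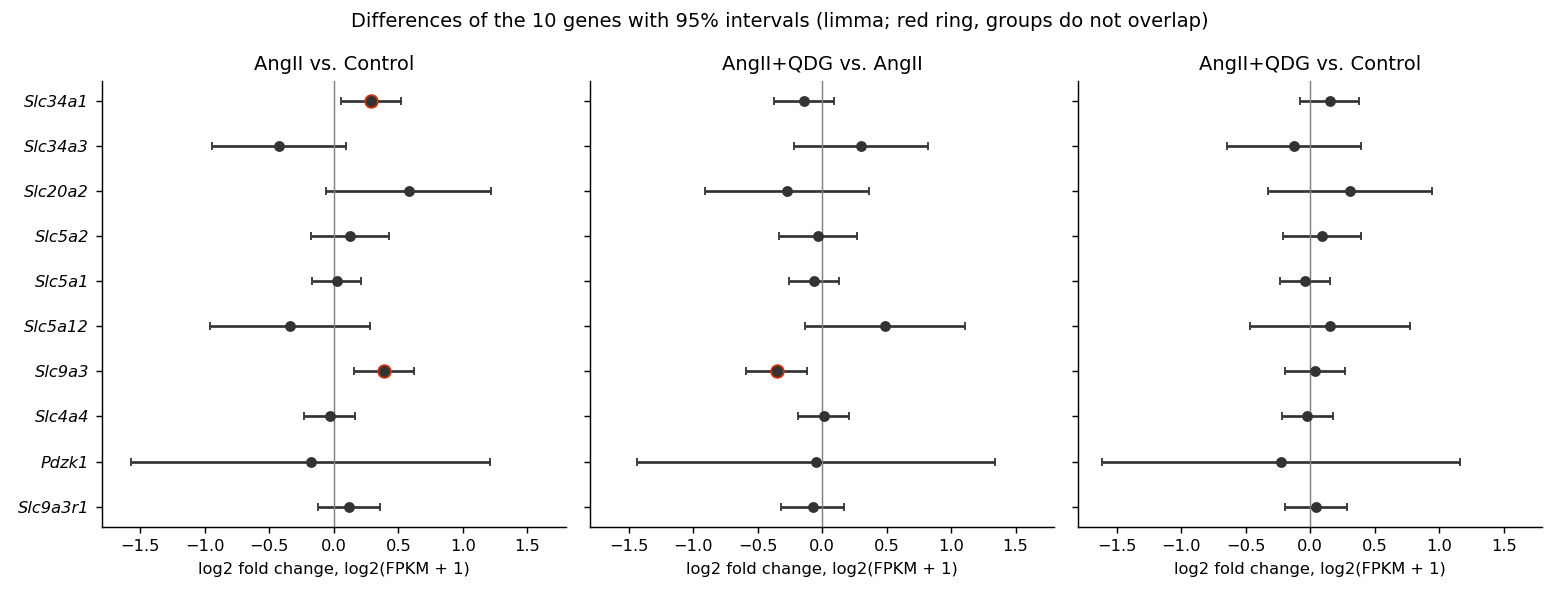
Log2 fold change of FPKM + 1 for the 10 genes in the 3 comparisons, with 95% intervals from limma (5 mice per group). A red ring marks a gene whose groups do not overlap. Slc9a3 lies at 0.39 between AngII and Control and at -0.35 between AngII+QDG and AngII, and the Pdzk1 intervals are the widest.

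Slc9a3 and Slc34a1 were the 2 genes whose AngII mice were separated from the Control mice, and the stretch just before each gene's RefSeq start is shown because these starts differ in their base composition and motifs. Both are read on the plus strand of GRCm38.p6, at chr13:55399548-55399647 for Slc34a1 and chr13:74121313-74121412 for Slc9a3, and end at the base before the annotated start.
Slc34a1: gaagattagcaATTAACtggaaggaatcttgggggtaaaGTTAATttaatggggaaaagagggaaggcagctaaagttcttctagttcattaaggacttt
Slc9a3: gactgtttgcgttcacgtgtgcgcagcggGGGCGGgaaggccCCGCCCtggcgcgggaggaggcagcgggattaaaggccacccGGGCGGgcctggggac
Capitals mark GTTAAT, the half-site of the tubular transcription factor HNF1, in Slc34a1 and GGGCGG, the GC box, in Slc9a3, each searched on both strands. The half-sites begin 89 and 61 bases before the Slc34a1 start, and 7.1% of the 32851 RefSeq promoter windows of 300 bases (250 before the start and 50 after it) hold 1 or more. The 3 GC boxes of Slc9a3 begin 71, 58 and 16 bases before its start, and 35.7% of windows hold this motif. GC boxes also lie in the windows of members whose groups overlapped, 4 in Slc9a3r1 and 1 each in Slc4a4 and Pdzk1. The full HNF1 site was searched too and was absent from the Slc34a1 window. Over the whole 300-base window the Slc9a3 promoter was 68.7% G and C and the Slc34a1 promoter 46.7%. The motifs are matches of letters and not measured binding.

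Slc34a1 (ENSMUSG00000021490, chromosome 13, 55398187 to 55415592, plus strand) encodes NaPi-IIa, the main phosphate carrier of the mouse proximal tubule brush border. Its level was 2008, 2054, 2035, 1923 and 2072 FPKM in the 5 Control mice. The AngII mice had 2212, 3065, 2113, 2167 and 2941 FPKM. The AngII+QDG mice had 2594, 2291, 2031, 1999.6 and 2333 FPKM. Every AngII mouse lay above every Control mouse, but 3 of them by a small margin and mice 2 and 5 by a wide one, and the AngII+QDG mice spanned the gap and overlapped both groups. The means were 2018.5 ± 58.2, 2499.6 ± 463 and 2249.7 ± 244 FPKM (SD, n = 5), and AngII exceeded Control by 0.29 on the log2 scale (SE 0.11, 95% interval 0.06 to 0.52, 1.22-fold), with a limma adjusted p of 0.125. Without AngII mice 2 and 5, which were left out after their values were seen, the difference was 0.10 (adjusted p = 0.528), and under quantile normalization of all mice it was 0.50 (adjusted p = 0.0691). The difference from AngII to AngII+QDG was -0.14 (adjusted p = 0.566) and from Control to AngII+QDG 0.15 (adjusted p = 0.553). The first of these was -0.38 under quantile normalization (adjusted p = 0.205), -0.06 without AngII mouse 2, -0.08 without AngII mouse 5 and 0.05 without both, and the second was 0.07 under median scaling and 0.10 without AngII+QDG mouse 1.

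Slc34a3 (chromosome 2, 25228898 to 25234364, minus strand) encodes NaPi-IIc, the smaller partner of NaPi-IIa in phosphate recovery. The Control mice had 3.91, 2.46, 3.95, 4.66 and 5.51 FPKM, the AngII mice 1.49, 3.46, 2.58, 2.48 and 4.11 FPKM, and the AngII+QDG mice 3.90, 1.92, 3.15, 6.15 and 3.72 FPKM. All 3 groups overlapped, with means of 4.10 ± 1.12, 2.82 ± 1.00 and 3.77 ± 1.54 FPKM, and the AngII to Control difference was -0.43 (adjusted p = 0.322) and ran from -0.56 to -0.28 (without AngII mouse 1) with 1 mouse left out. These values rest on 66 to 270 implied fragments per mouse and on 4 processed transcripts, since the 1 annotated coding transcript of the gene is not listed for any mouse. They are thus no measure of the RNA that encodes NaPi-IIc. A further processed transcript, ENSMUST00000155420, is listed only for the 10 Ang II-infused mice, at 0.192 to 1.18 FPKM, and was left out of the sum because the Control files do not list it. Such differences in listing between groups were not limited to this gene, and their extent is given with the processing.

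Slc20a2 (chromosome 8, 22476788 to 22569612, plus strand) encodes PiT-2, a phosphate carrier of another family. Its values were 12.4, 15.2, 19.0, 4.52 and 19.4 FPKM in Control, 20.5, 20.1, 24.6, 16.9 and 16.5 FPKM in AngII, and 16.1, 16.9, 10.8, 16.8 and 20.98 FPKM in AngII+QDG. Control mouse 4 was the lowest of the 15, and the groups overlapped. The means were 14.1 ± 6.09, 19.7 ± 3.29 and 16.3 ± 3.64 FPKM, and the AngII to Control difference of 0.58 had an interval of -0.06 to 1.22 (adjusted p = 0.270). Without Control mouse 4 it was 0.25 (adjusted p = 0.462).

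Slc9a3 (chromosome 13, 74121457 to 74169442, plus strand) encodes NHE3, the sodium-proton exchanger of the brush border. The Control mice had 38.3, 47.0, 35.7, 35.4 and 39.4 FPKM. The AngII mice had 48.4, 57.6, 54.1, 48.4 and 48.4 FPKM. The AngII+QDG mice had 40.6, 41.2, 45.9, 30.001 and 43.9 FPKM. The lowest AngII mouse lay just above the highest Control mouse and above all 5 AngII+QDG mice, while the Control and AngII+QDG groups overlapped. The means were 39.1 ± 4.70, 51.4 ± 4.25 and 40.3 ± 6.16 FPKM.

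The Slc9a3 difference between AngII and Control was 0.39 on the log2 scale (SE 0.11, 95% interval 0.15 to 0.62, 1.31-fold), and its adjusted p of 0.051 in limma fell just short of the threshold. From AngII to AngII+QDG the difference was -0.35 (SE 0.11, interval -0.59 to -0.12, adjusted p = 0.112), and from Control to AngII+QDG it was 0.03 (adjusted p = 0.917). The call turned on small choices: the adjusted p was 0.048 when transcripts listed in only some files were added to the tested set, 0.027 without Control mouse 2 and 0.018 without AngII+QDG mouse 4, and 0.181 without AngII mice 2 and 5, where the difference was 0.36. In the first of these settings, unlisted transcripts counted as 0. Both listed transcripts of Slc9a3 are listed for all 15 mice, so its own values did not change there, only the other genes in the fit. The gene holds 2 listed transcripts, the coding ENSMUST00000221703, with 75.6% of the sum on average, and a 2-exon processed transcript. For the coding transcript alone the groups overlapped and the AngII to Control difference was 0.36 (SE 0.13, adjusted p = 0.197 over all tested transcripts). From AngII to AngII+QDG the groups overlapped for both transcripts, with a difference of -0.28 for the coding transcript (adjusted p = 0.440) and -0.52 for the processed one (adjusted p = 0.195), so the separation of the gene sums was not seen in either transcript alone.

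Slc4a4 (chromosome 5, 88886818 to 89239653, plus strand) encodes the basolateral sodium-bicarbonate cotransporter NBCe1. It had 231, 217, 229, 217 and 254 FPKM in Control, 185, 244, 251, 195 and 256 FPKM in AngII, and 239, 226, 243, 206 and 218 FPKM in AngII+QDG. The groups overlapped, and the AngII to Control difference of -0.03 had an interval of -0.23 to 0.16 (adjusted p = 0.872) and ran from -0.08 to 0.04 with 1 mouse left out. From AngII to AngII+QDG and from Control to AngII+QDG the differences were 0.01 and -0.02, less than the spread between mice.

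Slc5a2 (ENSMUSG00000030781, chromosome 7, 128265657 to 128272430, plus strand) encodes SGLT2, which recovers most filtered glucose in the early proximal tubule. The Control mice had 204, 179, 180.4, 227 and 197 FPKM. The AngII mice had 195, 301, 178, 184 and 233 FPKM, and the AngII+QDG mice 249.96, 203, 169, 235 and 200.2 FPKM. AngII mouse 2 was the highest, as it was for Slc34a1, and the groups overlapped. The means were 197 ± 19.8, 218 ± 50.9 and 211 ± 31.7 FPKM, and the AngII to Control difference was 0.12 (interval -0.18 to 0.42, adjusted p = 0.652). Without AngII mouse 2 it was 0.0015 (adjusted p = 0.997). Its sign changed with the transcripts counted, since the coding transcripts alone gave -0.07 and the most abundant one alone -0.18.

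Slc5a1 (chromosome 5, 33104219 to 33162870, plus strand) encodes SGLT1, which takes up glucose further down the tubule. Its single listed transcript had 22.6, 23.0, 21.9, 21.6 and 26.5 FPKM in Control, 22.4, 20.3, 26.4, 25.6 and 22.7 FPKM in AngII, and 21.3, 19.0, 25.2, 22.6 and 24.3 FPKM in AngII+QDG. It was among the steadiest of the 10 genes, with a coefficient of variation of 9.51% over the 15 mice. The AngII to Control difference was 0.02, with an interval of -0.17 to 0.21 (adjusted p = 0.921), and -0.02 to 0.07 with 1 mouse left out.

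Slc5a12 (chromosome 2, 110597298 to 110647779, plus strand) encodes a sodium-coupled lactate and monocarboxylate carrier. The Control mice had 27.5, 29.5, 55.1, 49.7 and 28.3 FPKM, the AngII mice 39.7, 29.1, 25.4, 45.8 and 13.8 FPKM, and the AngII+QDG mice 48.4, 30.9, 35.0, 47.4 and 43.7 FPKM. AngII mouse 5 was the lowest of all, and the groups overlapped. The means were 38.0 ± 13.3, 30.7 ± 12.5 and 41.1 ± 7.76 FPKM, with an AngII to Control difference of -0.34 (adjusted p = 0.532) and an AngII+QDG to AngII difference of 0.49 (adjusted p = 0.429). Without AngII mouse 5 these were -0.09 (adjusted p = 0.875) and 0.24 (adjusted p = 0.700), and over all mice left out 1 at a time they ran from -0.505 to -0.09 and from 0.24 to 0.66. The coding transcript ENSMUST00000111026 supplied only 1.25 to 21.8 FPKM of these sums and alone gave -0.58 (adjusted p = 0.617 over all tested transcripts) and 0.87 (adjusted p = 0.544) in the same comparisons, with groups that overlapped, and a retained-intron transcript took 56.9% of the sum on average.

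Pdzk1 (chromosome 3, 96829284 to 96870926, plus strand) encodes a scaffold with PDZ domains that binds NaPi-IIa and other brush border carriers. The Control mice had 476, 91.6, 422, 148 and 179.9 FPKM, the AngII mice 534, 511, 212, 63.1 and 70.7 FPKM, and the AngII+QDG mice 193, 139, 152, 415 and 131 FPKM. High and low mice occurred in every group, and the highest value was 8.47 times the lowest. The means were 263 ± 173, 278 ± 231 and 206 ± 119 FPKM. AngII thus had the higher mean, while the AngII to Control difference on the log2 scale was -0.18 (interval -1.57 to 1.21, adjusted p = 0.906) and ran from -0.27 to 0.43 over the alternative settings with all mice kept, above 0 among these only for the most abundant transcript alone. With 1 mouse left out it ran from -0.55 (without AngII mouse 1) to 0.22 (without AngII mouse 4), and it was also above 0 without Control mouse 1 or 3 or AngII mouse 5. The division of the sum over transcripts varied as well: ENSMUST00000107070 ranged from 5.97 to 338 FPKM, and the nonsense-mediated decay transcript ENSMUST00000153256 was listed at 0 in 4 mice and at up to 254 FPKM in another.

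Slc9a3r1 (chromosome 11, 115163341 to 115181181, plus strand) encodes NHERF1, the scaffold first known as a regulator of NHE3. It had 190.5, 186, 189, 209 and 144 FPKM in Control, 228, 203, 151, 213 and 205 FPKM in AngII, and 211, 187, 171, 184 and 190.0 FPKM in AngII+QDG. The groups overlapped, with a difference of 0.12 between AngII and Control (adjusted p = 0.582), which was 0.03 without Control mouse 5 and 0.22 without AngII mouse 3. Unlike Pdzk1, this scaffold has a single listed transcript, and its coefficient of variation was 11.9% against 68.3%.

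**Figure D3:**
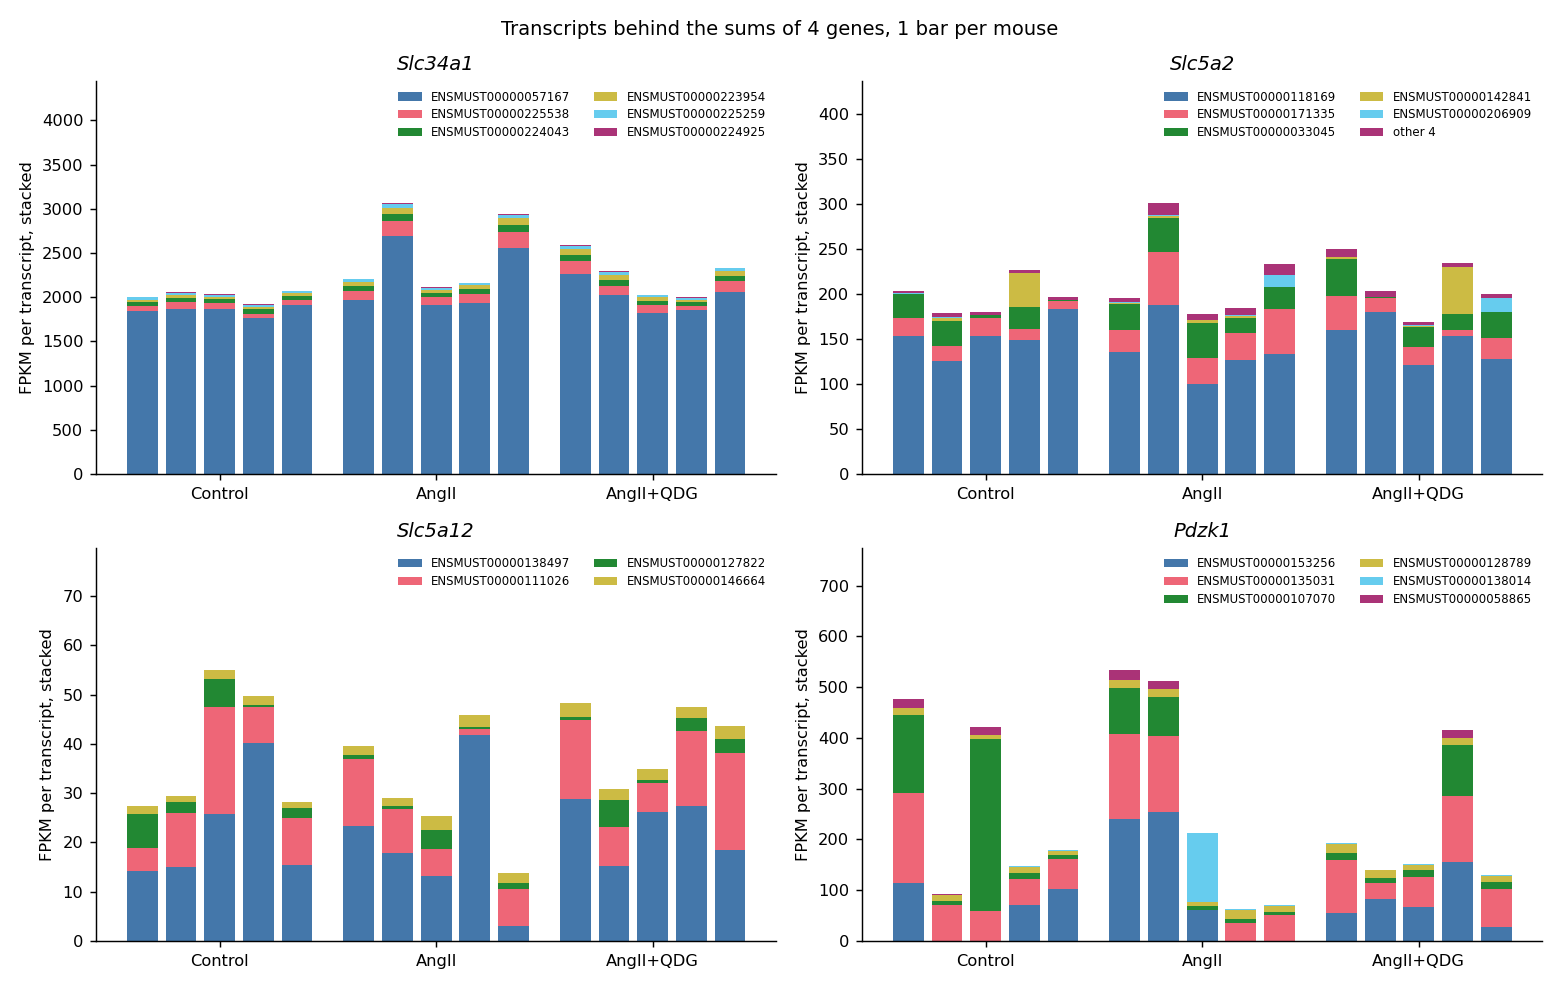
FPKM of each listed transcript, stacked, in each of the 15 mice for Slc34a1, Slc5a2, Slc5a12 and Pdzk1. The coding ENSMUST00000057167 makes up most of Slc34a1 in every mouse, whereas the make-up of Pdzk1 differs from mouse to mouse.

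The 10 genes hold 36 tested transcripts, of which 0 were called by limma in each comparison, against 0.691% of the 28812 tested transcripts between AngII and Control, 0.0972% between AngII+QDG and AngII and 0.0243% between AngII+QDG and Control. Between AngII and Control 10 of the 36 had an unadjusted p under 0.05, all of them higher in AngII, against 12.2% of all transcripts in that direction. The 3 that also reached a fold of 2 (2.88% of all transcripts) passed the study's threshold, which was set for transcripts. They were retained-intron transcripts, 1 of Slc5a2 and 2 of Slc34a1, and they are named here after their values were seen.

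The Slc5a2 retained-intron transcript ENSMUST00000171335 (chromosome 7, 128266958 to 128268992) had 19.6, 16.4, 19.6, 12.4 and 9.39 FPKM in the Control mice. It had 23.7, 59.5, 29.0, 30.6 and 49.7 FPKM in AngII and 37.5, 15.96, 19.8, 7.47 and 23.3 FPKM in AngII+QDG. Every AngII mouse was above every Control mouse, a difference of 1.23 (SE 0.36, adjusted p = 0.117), and the AngII+QDG to AngII difference was -0.94 (adjusted p = 0.342), with groups that overlapped. The main coding transcript of the gene, ENSMUST00000118169, differed by -0.18 between AngII and Control (adjusted p = 0.627). The Slc34a1 retained-intron transcripts ENSMUST00000225538 (55408319 to 55412149) and ENSMUST00000223954 (55408754 to 55413344) differed by 1.04 each (adjusted p of 0.0982 and 0.0949), with every AngII mouse above every Control mouse.

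The percent of a gene's FPKM that lies in retained-intron transcripts is given as a description, with no test, because it was taken up after the transcripts above had been seen to separate the AngII from the Control mice. For Slc5a2 the share was 10.1%, 9.79%, 11.4%, 6.31% and 5.16% in Control, 13.1%, 21.7%, 18.4%, 17.8% and 23.3% in AngII, and 17.0%, 9.56%, 12.1%, 3.64% and 12.2% in AngII+QDG. The means were 8.55% ± 2.68, 18.8% ± 3.95 and 10.9% ± 4.86 (SD, n = 5). Every AngII mouse exceeded every Control mouse, and 1 AngII+QDG mouse reached into the AngII range.

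For Slc34a1 the share was 6.70%, 7.43%, 6.54%, 6.11% and 6.45% in Control, 9.19%, 10.5%, 8.04%, 9.34% and 11.7% in AngII, and 11.02%, 10.05%, 8.81%, 5.85% and 10.04% in AngII+QDG. AngII was again above Control in every mouse, and the highest 4 AngII+QDG mice lay inside the AngII range. In Slc5a12 the mean share was 57.0% ± 13.7 in Control, 57.1% ± 24.9 in AngII and 56.7% ± 12.2 in AngII+QDG, and the groups overlapped. The share over all other nuclear genes was 2.85% ± 0.135 in Control, 3.58% ± 0.281 in AngII and 3.29% ± 0.483 in AngII+QDG, and there too every AngII mouse (3.25% to 3.88%) was above every Control mouse (2.65% to 2.99%). Divided by the share of those other genes, Slc5a2 had a ratio of 2.99 ± 0.909 in Control, 5.22 ± 0.796 in AngII and 3.21 ± 1.199 in AngII+QDG, and Slc34a1 had 2.33 ± 0.115, 2.72 ± 0.339 and 2.76 ± 0.295. On this ratio the AngII mice still lay above the Control mice for Slc5a2 (4.03 to 6.17 against 1.75 to 3.97), but for Slc34a1 the groups overlapped, with AngII mouse 3 at 2.18 below all Control mice (2.19 to 2.49). Without AngII mice 2 and 5 the AngII mean was 7.85 points above Control for Slc5a2 and 2.21 points above it for Slc34a1. The part of RNA handling or of the unnamed quantification tool in these shares was not tested.

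**Figure D4:**
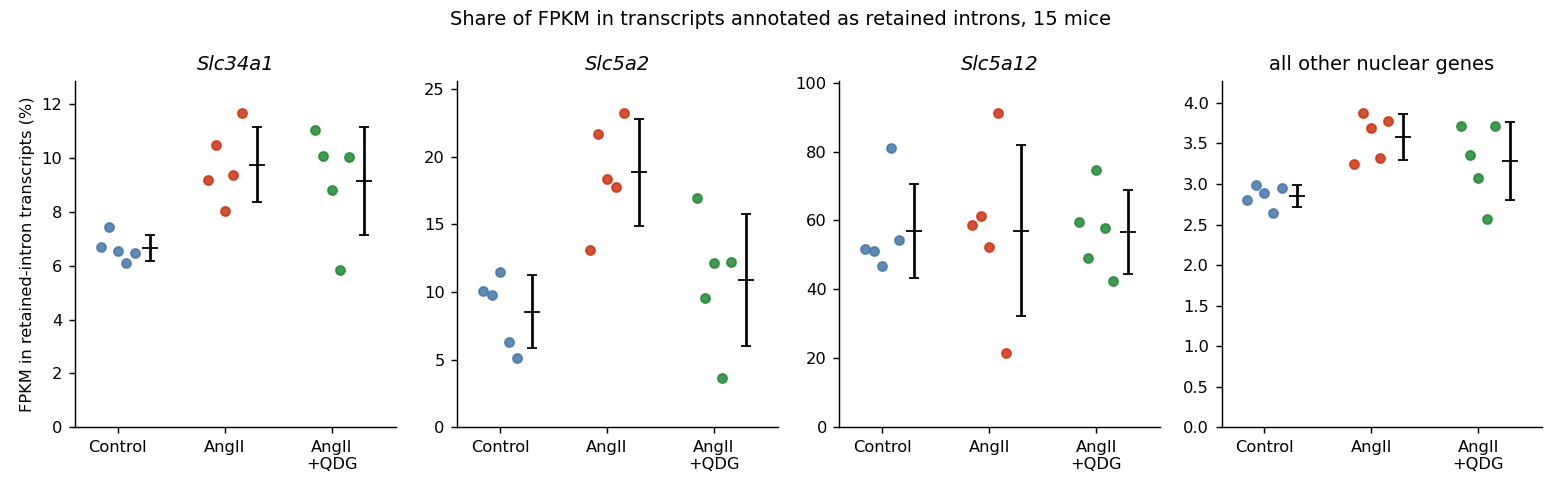
Percent of FPKM in retained-intron transcripts per mouse for Slc34a1, Slc5a2, Slc5a12 and all other nuclear genes, by group, with the group mean and SD (n = 5). In Slc5a2 the AngII mice lie at 13.1% to 23.3% and the Control mice at 5.16% to 11.4%, and in Slc5a12 the groups overlap.

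Around these members, a list of 41 other genes of proximal tubule transport was read from the same fit, and 39 of them could be tested. Between AngII and Control 6 of the 39 were called, all higher in AngII, against 4.95% of all genes in that direction, and the median difference of the list was 0.04 beside 0.08 over all genes. Under median scaling of each library 4 were called, 1 higher and 3 lower, and under quantile normalization 5, of which 2 were higher and 3 lower, although each of the 6 genes stayed above 0 under both. Of the 11 other apical cotransporters, limma called 0, and 1, the sulfate carrier Slc13a1, had an unadjusted p under 0.05, as did 13 of the 39 in all (22.7% of all genes). The calls fell among solute exit and sodium pumping (1 of 7), bicarbonate and acid transport (2 of 8) and scaffolds and regulators (3 of 13).

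Atp1b1, a beta subunit of the sodium pump, rose from 960.4 ± 68.3 to 1136 ± 57.2 FPKM, by 0.24 on the log2 scale (adjusted p = 0.0226). Slc9a8, which encodes the sodium-proton exchanger NHE8, rose from 5.06 ± 2.61 to 14.2 ± 2.85 FPKM, by 1.42 (adjusted p = 0.0188), but its most abundant transcript alone gave 0.69 (adjusted p = 0.524). Slc4a2, an anion exchanger, rose from 11.9 ± 1.05 to 19.1 ± 2.81 FPKM, by 0.63 (adjusted p = 0.0227), but its most abundant transcript alone gave -0.94 (adjusted p = 0.413). Ezr, which links brush border proteins to actin, rose from 144 ± 5.81 to 170.0 ± 12.8 FPKM, by 0.24 (adjusted p = 0.0225). Pth1r, the parathyroid hormone receptor, rose from 226 ± 19.1 to 275 ± 27.4 FPKM, by 0.28 (adjusted p = 0.0413). Cyp27b1, the enzyme that activates vitamin D, rose from 9.55 ± 1.26 to 33.1 ± 21.01 FPKM, by 1.47 (adjusted p = 0.0427), with 51.0 and 59.8 FPKM in AngII mice 2 and 5 and 12.4 to 24.4 FPKM in the other 3. None of the 6 was called without those 2 mice, which leaves 3 against 5, when the differences were 0.29 for Atp1b1, 1.48 for Slc9a8, 0.53 for Slc4a2, 0.20 for Ezr, 0.26 for Pth1r and 0.83 for Cyp27b1. Leaving out 1 mouse took the limma adjusted p up to 0.0563 for Atp1b1, 0.0560 for Slc4a2 and 0.0574 for Ezr. It rose to 0.0966 for Pth1r and 0.0996 for Cyp27b1, but only to 0.0456 for Slc9a8. With all mice kept, each of the 6 lost its call under some alternative setting.

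In the AngII+QDG mice these genes averaged 1107.5 FPKM for Atp1b1, 8.54 FPKM for Slc9a8, 13.4 FPKM for Slc4a2, 149 FPKM for Ezr, 227 FPKM for Pth1r and 16.8 FPKM for Cyp27b1, and limma called none of the 6 between AngII+QDG and AngII. The 1 gene of the 39 called in that comparison was Slc16a1, lower in AngII+QDG (1.29% of all genes in that direction). It encodes the lactate carrier MCT1. Its level was 9.56, 10.9, 21.1, 9.08 and 11.3 FPKM in AngII and 5.23, 5.41, 6.29, 5.00 and 5.47 FPKM in AngII+QDG. Every AngII+QDG mouse lay below every AngII mouse, a difference of -0.99 (SE 0.19, adjusted p = 0.0246), and the Control mean was 10.1 ± 2.35 FPKM. Without AngII mice 2 and 5 the difference was -1.04 with an adjusted p of 0.107, and leaving out AngII mouse 2 or 5 or AngII+QDG mouse 2, 4 or 5 alone gave -1.01 to -0.96 with an adjusted p of 0.051 to 0.057. Between AngII+QDG and Control, limma called 0 of the 39 (0.129% of all genes), while 11 had an unadjusted p under 0.05 (14.4% of all genes). The 3 with the smallest p there were Slc16a1 (-0.75), Atp1b1 (0.21) and the scaffold Slc9a3r2 (0.37), with adjusted p of 0.113, 0.129 and 0.148.

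**Figure D5:**
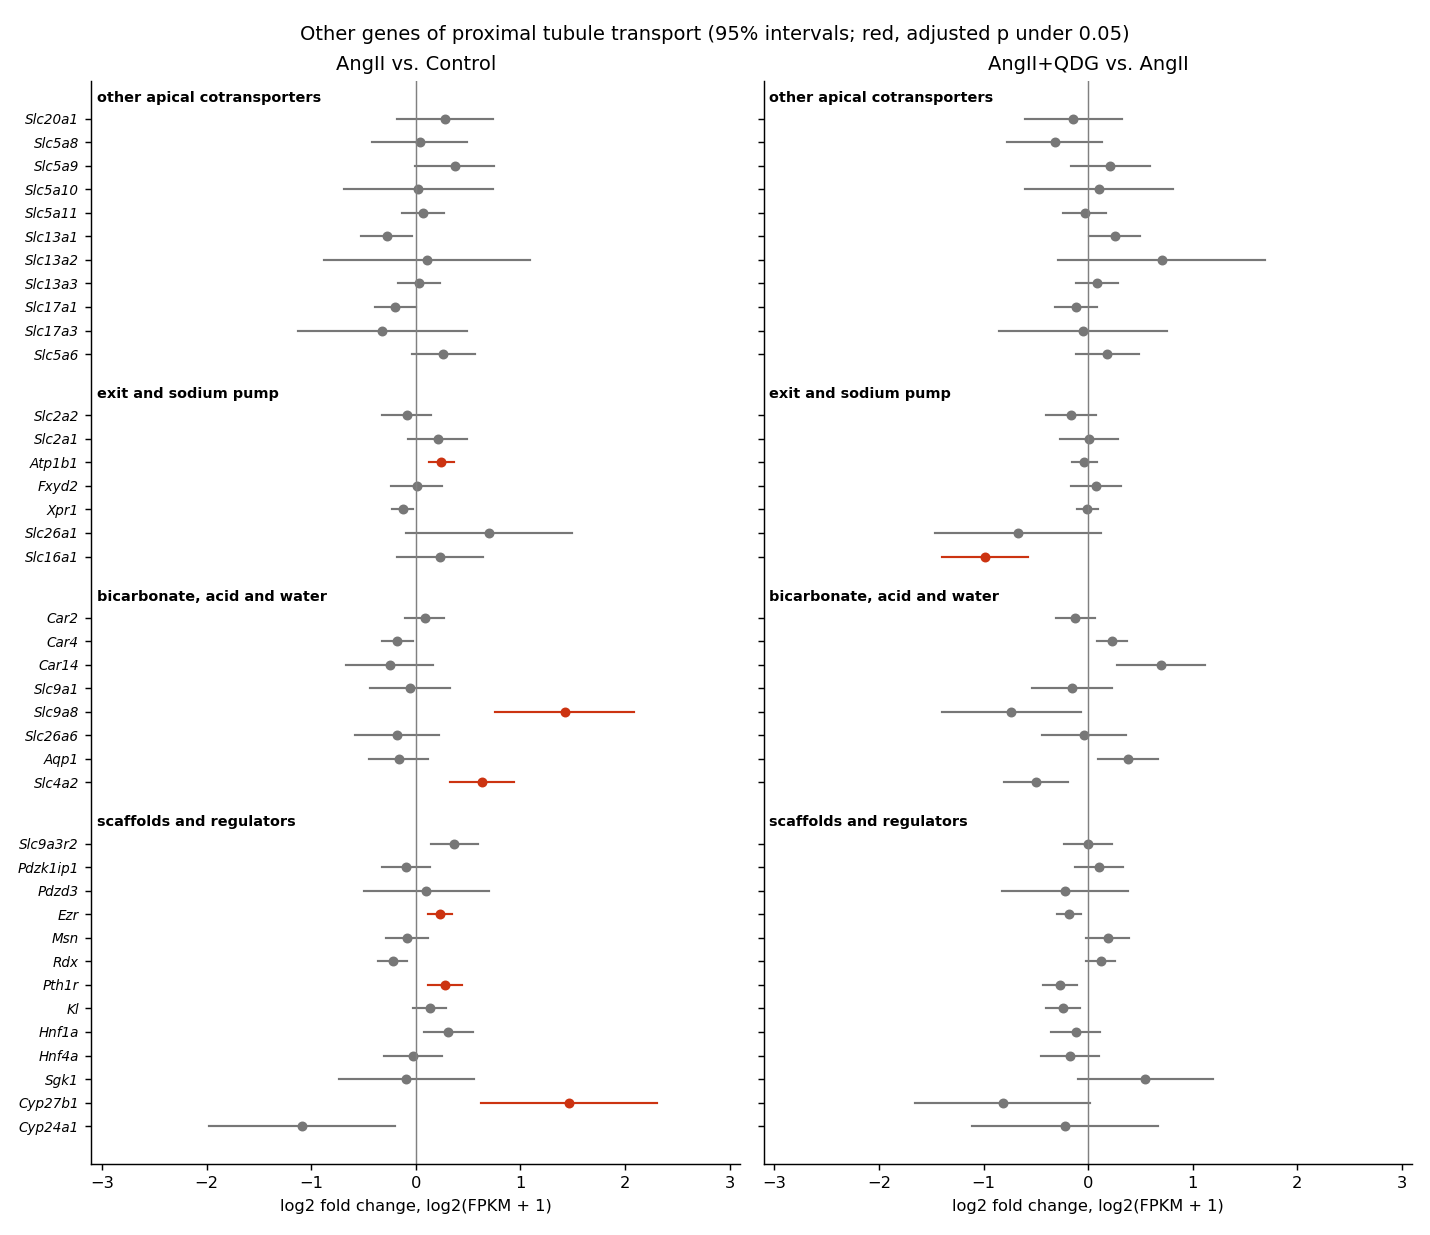
Log2 fold change of FPKM + 1 with 95% intervals for the 39 tested genes of the proximal tubule transport list, between AngII and Control and between AngII+QDG and AngII (5 mice per group). Red marks an adjusted p under 0.05: 6 genes, all above 0, in the first comparison and Slc16a1, at -0.99, in the second.

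The genes whose level followed a member most closely over the 15 mice were picked as the 3 highest Pearson correlations of log2(FPKM + 1) among 12356 genes, as a description. For Slc34a1 they were Cyp27b1 (r = 0.896, Spearman's rho 0.832), Crebzf (r = 0.894, rho 0.921) and Bpnt1 (r = 0.884, rho 0.800). For Slc5a2 they were Raver1 (r = 0.845, rho 0.871), Igfbp4 (r = 0.832, rho 0.793) and Txndc17 (r = 0.822, rho 0.721). Without the 2 mice farthest from the median of each member, the values were 0.702, 0.783 and 0.727 for Slc34a1 and 0.711, 0.762 and 0.645 for Slc5a2.

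The libraries held 68922839 to 81329502 implied fragments each and the members from 66 (Slc34a3) to 559604 (Slc34a1) of these. The group medians were 79345379 in Control, 79123931 in AngII and 70028824 in AngII+QDG, the shallowest group. Proximal tubule markers were present in every kidney: all 10 marker genes were listed, their summed level was 10180 to 20760 FPKM in Control, 8721 to 12780 FPKM in AngII and 11480 to 16160 FPKM in AngII+QDG, and limma called 0 of the 10 between AngII and Control (5.94% of all genes), with 4 at an unadjusted p under 0.05 (22.7% of all genes). It also called 0 of them between AngII+QDG and AngII (1.81%), with 3 at an unadjusted p under 0.05 (16.4%), and 0 between AngII+QDG and Control (0.129%), with 2 (14.4%). From AngII to AngII+QDG the organic anion transporters Slc22a6 and Slc22a8, which were among those 3 and are named after their values were seen, went from 363 ± 33.6 to 279 ± 36.3 FPKM (adjusted p = 0.0649) and from 133 ± 20.8 to 159.9 ± 12.7 FPKM (adjusted p = 0.153). The marker Kap, singled out after its values were seen, carried the difference in these sums: it had 6639 ± 4519 FPKM in Control, 2677 ± 1136 FPKM in AngII and 6839.9 ± 2161 FPKM in AngII+QDG (adjusted p = 0.159 between AngII and Control), and the other 9 markers summed to 6876 to 8257, 6762 to 8666 and 7007 to 7750.0 FPKM. Among 10 further marker lists, 3 held a gene called between AngII and Control. The podocyte markers Nphs1 and Podxl summed to 52.6 to 63.3 FPKM in Control, 65.7 to 79.3 FPKM in AngII and 69.5 to 86.1 FPKM in AngII+QDG, with Podxl called (0.35, adjusted p = 0.0277). The 3 listed intercalated cell markers summed to 50.6 to 54.3, 58.4 to 82.3 and 62.2 to 84.3 FPKM in the same order, with Slc26a4 called (0.49, adjusted p = 0.0312), and the 4 fibroblast and pericyte markers to 15.7 to 28.3, 23.8 to 61.6 and 32.4 to 39.8 FPKM, with only Pdgfrb of these 4 called (1.13, adjusted p = 0.0468). Pdgfrb was low, at 0.634 ± 0.634 FPKM in Control and 2.35 ± 0.225 FPKM in AngII. The 6 markers of the late proximal tubule (S3 segment) summed to 402 to 696, 513 to 744 and 315 to 584 FPKM, and Acy3 was called between AngII+QDG and AngII (-0.93, adjusted p = 0.0141). In the other 6 lists limma called 0 genes in each comparison, and their AngII and Control sums overlapped. An unadjusted p under 0.05 was reached by 2 of 3 distal convoluted tubule and 1 of 4 endothelial markers between AngII and Control (22.7% of all genes), by 3 of 4 thick ascending limb, 1 of 3 distal convoluted tubule and 2 of 5 principal cell markers between AngII+QDG and AngII (16.4%), and by 1 of 4 thick ascending limb markers between AngII+QDG and Control (14.4%). In Control, AngII and AngII+QDG these sums were 1104 to 1512, 873 to 1378 and 1282 to 1709 FPKM for the thick ascending limb, 58.6 to 81.6, 61.3 to 159 and 59.3 to 115 FPKM for the distal convoluted tubule, and 197 to 400.3, 177 to 411 and 263 to 479 FPKM for principal cells. They were 36.1 to 61.9, 37.3 to 61.0 and 43.5 to 63.05 FPKM for endothelium, 12.3 to 19.05, 9.96 to 15.8 and 10.1 to 30.5 FPKM for leukocytes, and 71.1 to 334.5, 61.7 to 139.8 and 93.8 to 142.5 FPKM for tubule injury. The defining markers Synpo, Slc4a1 and Cd3e and the injury markers Havcr1 and Krt20 were not listed for every mouse. Mitochondrial transcripts took 18.6% to 20.7% of FPKM in Control, 15.4% to 16.02% in AngII and 17.0% to 19.8% in AngII+QDG. The part of these shifts in the Slc34a1 and Slc9a3 differences was not tested.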

How the data were processed

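RNA sequencing of whole kidney from 15 mice (5 per group, as labelled) was read from the deposited FPKM of each transcript, 1 file per mouse. Per the labels and the study's methods, the authors depleted ribosomal RNA (a poly(A) module is also mentioned) and sequenced paired ends on an Illumina instrument. The submitters' processing notes name mm10 and limma, and the aligner, quantification tool, annotation and strand setting are not given in the sources used here, so reads of overlapping antisense genes (such as BC017158 at the end of Slc5a2 and Gpr89 at the end of Pdzk1) may not be separated. The deposited FPKM values of Ensembl transcripts listed for all 15 mice were summed per gene through GENCODE M21 (31244 of 31301 identifiers matched), and 11141 shared transcripts assembled by the authors were left out. The listed transcripts differed with the group: 41477 for Control mice and 42310 for Ang II-infused mice, with 40054 listed for all 15. This difference in listing cannot be told apart from the infusion, and its part in the differences from Control was not tested. Depth was implied by the steps of the low values, where 98.7% to 98.8% of values under 200 fragments lay within 0.1 of a whole number.

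Genes that reached 1 FPKM in 5 or more mice were tested with limma 3.58.1 (R 4.3.3, empirical Bayes with trend, 12 residual degrees of freedom) on log2(FPKM + 1), which understates the change of low genes, and p-values were adjusted by Benjamini-Hochberg over all genes. Transcripts were tested likewise. Shares and group values were computed in Python 3.11.15 with numpy 2.4.6, and figures drawn with matplotlib 3.10.9. The limma step was checked on simulated data. The p-values are for differences between group means, set against a spread between mice that is pooled over the groups. The members and lists were chosen with earlier results of these data known. Of the other transport genes, those called were named (at most 6 per comparison by smallest p, or the 3 with the smallest p where none was called), and marker lists are given by their sums and called genes. A gene of the transport list and a marker gene were taken off their lists and are not reported here. Promoters came from RefSeq (GRCm38.p6), which held an entry for 7 of the 10 members.

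Alternatives were pseudocounts of 0.1 and 0.01, no filter, quantile and median scaling, rescaling to nuclear FPKM, coding transcripts only, the most abundant transcript only, every listed transcript, limma without the trend and leaving out each mouse. Leaving out AngII mice 2 and 5 together and the retained-intron share were chosen after seeing the data.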

Additional observations from a re-analysis of the deposited data

Results flagged for a closer look

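In each group of 5 mice the highest and the lowest value of each member were set against the rest by Dixon's ratio (the gap to the nearest mouse over the whole range, with a critical value of 0.71). Of 30 groups 2 held such a mouse, where chance gives about 1 in 20. Slc5a1 was 26.5 FPKM in Control mouse 5, against 21.6 to 23.0 FPKM in the other Control mice. Pdzk1 was 415 FPKM in AngII+QDG mouse 4, against 131 to 193 FPKM in the other AngII+QDG mice.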

How the results depend on the processing

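No paired analysis was possible because the labels give no replicate numbers (the mouse numbers used here only name the mice). With all mice kept, the members' AngII to Control differences kept their side of the threshold in 98 of 99 repeats and those of the other comparisons in all 99 each. The exception was Slc9a3, the 1 member called when every listed transcript was tested. Its own values were unchanged in that setting, where transcripts not listed for a mouse counted as 0. Over these repeats the AngII to Control differences ranged from -0.57 to -0.26 for Slc34a3, -0.07 to 0.02 for Slc5a1, -0.12 to -0.03 for Slc4a4 and 0.03 to 0.12 for Slc9a3r1. With 1 mouse left out, 0 to 1 members (1 without Control 2 or AngII+QDG 4) and 0 to 2 of their transcripts (1 without AngII 1, 2 without AngII+QDG 4) were called between AngII and Control.

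Of the other transport genes, 6 were called between AngII and Control, and the number was 4 under median scaling (Slc9a8 of the 6, and 3 genes that were lower), 3 under nuclear rescaling, coding transcripts only and the most abundant transcript only (where Slc4a2 turned to -0.94), 0 without AngII 2 and 5, and 1 to 7 with 1 mouse left out (1 without Control 1, 2 without AngII 5, 3 without AngII 2). Between AngII+QDG and AngII the count of 1 was 2 under quantile normalization, 0 without AngII 2 and 5, and 0 to 1 with 1 mouse left out (0 without AngII 2, AngII 5, or AngII+QDG 2, 4 or 5). Between AngII+QDG and Control leaving out 1 mouse gave 0 to 2 (2 without Control 2, 1 without AngII 3).

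Over all genes, the 735 AngII to Control calls numbered 472 (median scaling), 408 (coding only), 353 (most abundant only) and 82 (without AngII 2 and 5), with 338 to 797 leaving out 1 mouse. The 224 calls between AngII+QDG and AngII numbered 7 without AngII 2 and 5 and 53 to 250 leaving out 1 mouse. The 16 between AngII+QDG and Control numbered 6 (coding only), 80 (every listed transcript, with unlisted ones counted as 0) and 6 (most abundant only), and 0 to 110 leaving out 1 mouse. The share of calls that were higher, 83.3%, 29% and 75% in the 3 comparisons, became 46%, 50% and 53.3% under quantile normalization and 42.6%, 39.1% and 40% under median scaling. With 1 mouse left out, the retained-intron difference between AngII and Control ranged from 9.17 to 11.7 points for Slc5a2 and from 2.62 to 3.53 points for Slc34a1. The cause of these shifts was not tested.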
